A study of Mus musculus with 8 samples.

Results

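Cultures of spermatogonial stem cells (SSC) that lack Stra8 were compared with cultures labelled as lacking Spo11, both kept in the complete SSC medium that served as vehicle (Veh). The comparison used 4 of the 8 RNA-seq libraries of the series, 2 of Stra8KO Veh and 2 of Spo11KO Veh, and all genes of the count table. The other 4 libraries came from the same genotypes under nutrient restriction with retinoic acid (NRRA), and enter here only where the genotype difference was set beside that in Veh. In both genotypes the germ cells came from testes of pups on a C57BL/6XDBA/2 background, 1 line deficient for Stra8 and 1 for Spo11. By the sample labels all 4 Veh cultures were grown with 10 ng/ml bFGF and 10 ng/ml GDNF, whereas the paper's recipe for this medium lists more GDNF. The feeders were irradiated fibroblasts from outbred CF1 mice. No wild-type Veh library was analysed here, so that each difference is one between 2 mutants. The labels do not say whether the 2 libraries of a genotype came from separately derived cultures. The p-values therefore measure the spread between these libraries, which may be technical, and genotype and culture cannot be told apart.

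SSC in culture self-renew under GDNF, which acts through the receptor pair GFRA1 and RET, and under FGF. Retinoic acid moves spermatogonia towards differentiation and meiosis and induces Stra8, which encodes a transcription factor needed for the meiotic program, whereas SPO11 is the enzyme that makes the DNA double-strand breaks of meiotic recombination. The paper describes arrest at meiotic initiation in germ cells that lack Stra8, and also cites a role of STRA8 in spermatogonial differentiation. It reports that Pou5f1 and Etv5, among other genes of undifferentiated spermatogonia, escaped downregulation in Stra8-deficient culture under NRRA. Spo11 is needed for the synaptonemal complex in vivo. The feeder fibroblasts are arrested and supply matrix and ligands, and their RNA is sequenced with that of the germ cells.

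The targeted genes were examined first. Stra8 (chr6:34920163-34939344, plus strand, mm10) was counted 2 and 0 times in the Stra8KO libraries of Veh, against 28 and 12 times in Spo11KO. With the Stra8KO libraries set at 3 counts each, it was at least 5.96-fold lower in Stra8KO, and the groups did not overlap. Spo11 (chr2:172977700-172993576, plus strand, mm10) had 72 and 75 counts in the libraries labelled Spo11KO, more than the 32 and 31 of Stra8KO. Its log2 difference was -1.07 ± 0.242 (SE, edgeR adjusted p = 0.00014), with lower values in Stra8KO, so the Spo11 count does not mark the libraries labelled Spo11KO. Counts per gene do not show which exons the reads came from, and the deletion itself was not checked here.

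The 4 Veh libraries held between 20960794 and 23701569 counts, and all 8 between 20960794 and 27038868. Of 20588 genes tested, 12826 (62.3%) differed between Stra8KO Veh and Spo11KO Veh at an edgeR adjusted p under 0.05, 6501 (31.6%) higher and 6325 (30.7%) lower in Stra8KO. At least 2-fold differences were called for 1915 genes higher (9.30%) and 1421 lower (6.90%), and 4-fold differences for 98 genes higher and 157 lower. The median log2 difference of all tested genes was 0.0012, and the middle 95% of genes lay between -1.48 and 1.42. Replicates differed little (common biological coefficient of variation 3.39%), so that small differences passed the test and a gene list has to be read against the 62.3% called among all genes. The Veh libraries of the 2 genotypes overlapped in only 32 of the 12826 called genes. Lack of overlap, where given below, thus sets no named gene apart from other called genes.

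The split into higher and lower depends on the scale. The values above and all values below, unless another scale is named, are relative to the bulk of genes (TMM scaling), and CPM are counts per 1000000 counts of the TMM-scaled library. With library totals the median of all genes shifted to -0.11 and the calls split into 5417 higher and 7544 lower, or 1260 and 1958 at 2-fold. Scaled so that 12 genes expressed throughout the germline (pan-germ genes) were level, the median of all genes moved to 0.99, with 16023 higher and 384 lower. Scaled to 23 fibroblast markers it moved to -0.90, with 816 higher and 14600 lower. Directions given below are thus relative to the median gene, and many of them turn on 1 of the other scales, which are then given beside the list. Counts and medians on those scales have to be read against these shifts of all genes.

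**Figure D1:**
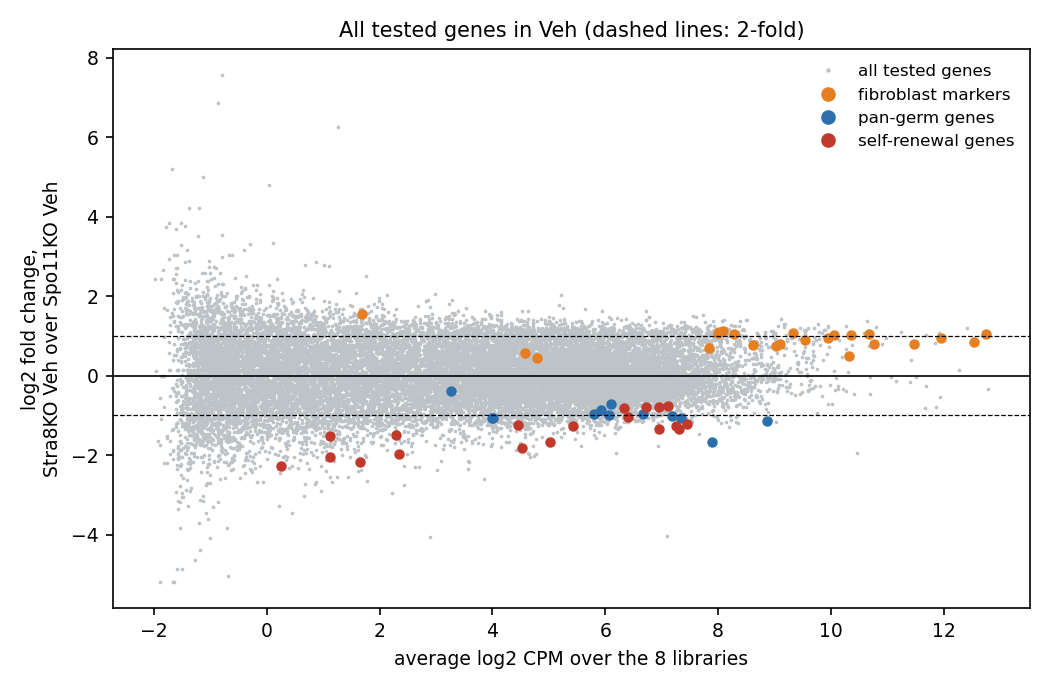
Log2 fold change of Stra8KO Veh over Spo11KO Veh (vertical axis) against the average log2 CPM over the 8 libraries (horizontal axis) for all 20588 tested genes (grey), with the fibroblast markers, pan-germ genes and self-renewal genes as larger points and dashed lines at 2-fold. All 23 fibroblast markers lie above 0, and all 12 pan-germ genes and all 19 tested self-renewal genes lie below it.

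Germ cell genes were lower and fibroblast genes higher in Stra8KO Veh. The 12 pan-germ genes were lower without exception, with a median log2 difference of -1.01 and a range of -1.68 to -0.39. Ddx4, an RNA helicase of the germline, had 96.7 and 100.2 CPM in Stra8KO and 198 and 212 CPM in Spo11KO (log2 -1.06 ± 0.0448 SE, edgeR adjusted p = 7.84e-26). Dazl, an RNA-binding translation regulator of germ cells, had 285 and 288 against 618 and 658 CPM (log2 -1.15 ± 0.0406). In neither gene did the groups overlap. The largest difference of this list was that of Tex15, a nuclear factor for transposon silencing and meiotic recombination, at -1.68 ± 0.0509, with 84.2 and 84.1 against 260.4 and 277.6 CPM. Nanos3, which protects germ cells from apoptosis, had the smallest, at -0.39 ± 0.124, and it was no longer called without Stra8KO Veh replicate 1 (edgeR adjusted p = 0.0663). The 14 genes of the piRNA pathway, which silences transposons in the germline, were likewise all called lower (median -0.98, range -1.17 for Piwil4 to -0.60 for Tdrd5).

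All 23 fibroblast markers were called higher, with a median of 0.93 and a range from 0.45 (Twist1, a mesenchymal transcription factor) to 1.55 (S100a4, an S100 protein that the paper used as a fibroblast marker). Their summed share of the scaled counts was 3.16 and 3.21% in the Stra8KO libraries and 1.65 and 1.67% in the Spo11KO libraries. The summed share of the pan-germ genes was 0.0809 and 0.0809% against 0.173 and 0.180%. Of 12 contractile genes of smooth muscle and myofibroblasts, 10 were higher and none lower (median 0.83). For both sets of sums the 2 genotypes did not overlap. In bulk samples fewer cells of a type and less RNA per cell cannot be told apart. Every other list below differs between cultures that differ in these 2 sums, and the part of the germ cell to feeder ratio in those differences was not tested beyond the 2 scalings named above.

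Genes of the cell cycle were lower, and their medians lay near that of the pan-germ genes, although the difference between the lists was not tested. All 25 DNA replication genes (median -0.99) and all 25 mitosis genes (median -0.996) were called lower. Mki67, the proliferation antigen, measured 231 and 238 CPM in Stra8KO and 449.6 and 486 CPM in Spo11KO (log2 -0.996 ± 0.0415 SE, edgeR adjusted p = 2.15e-25), and the groups did not overlap. Mcm10, a replication initiation factor, had the largest difference of both lists (-1.49 ± 0.0582). Scaled to the pan-germ genes, the replication median was 0.0041 and the mitosis median -0.0013, and 6 replication genes were higher and 4 lower, and 2 mitosis genes higher and 5 lower. On the scale of the bulk of genes, 16 of 19 CDK inhibitors and p53 targets were higher and none lower (median 0.73), among them Cdkn1a at 1.11 ± 0.0375 and Cdkn2b, the inhibitor p15, at 1.39 ± 0.0473. Scaled to the fibroblast markers, 6 of these 19 were higher and 10 lower (median -0.18).

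**Figure D2:**
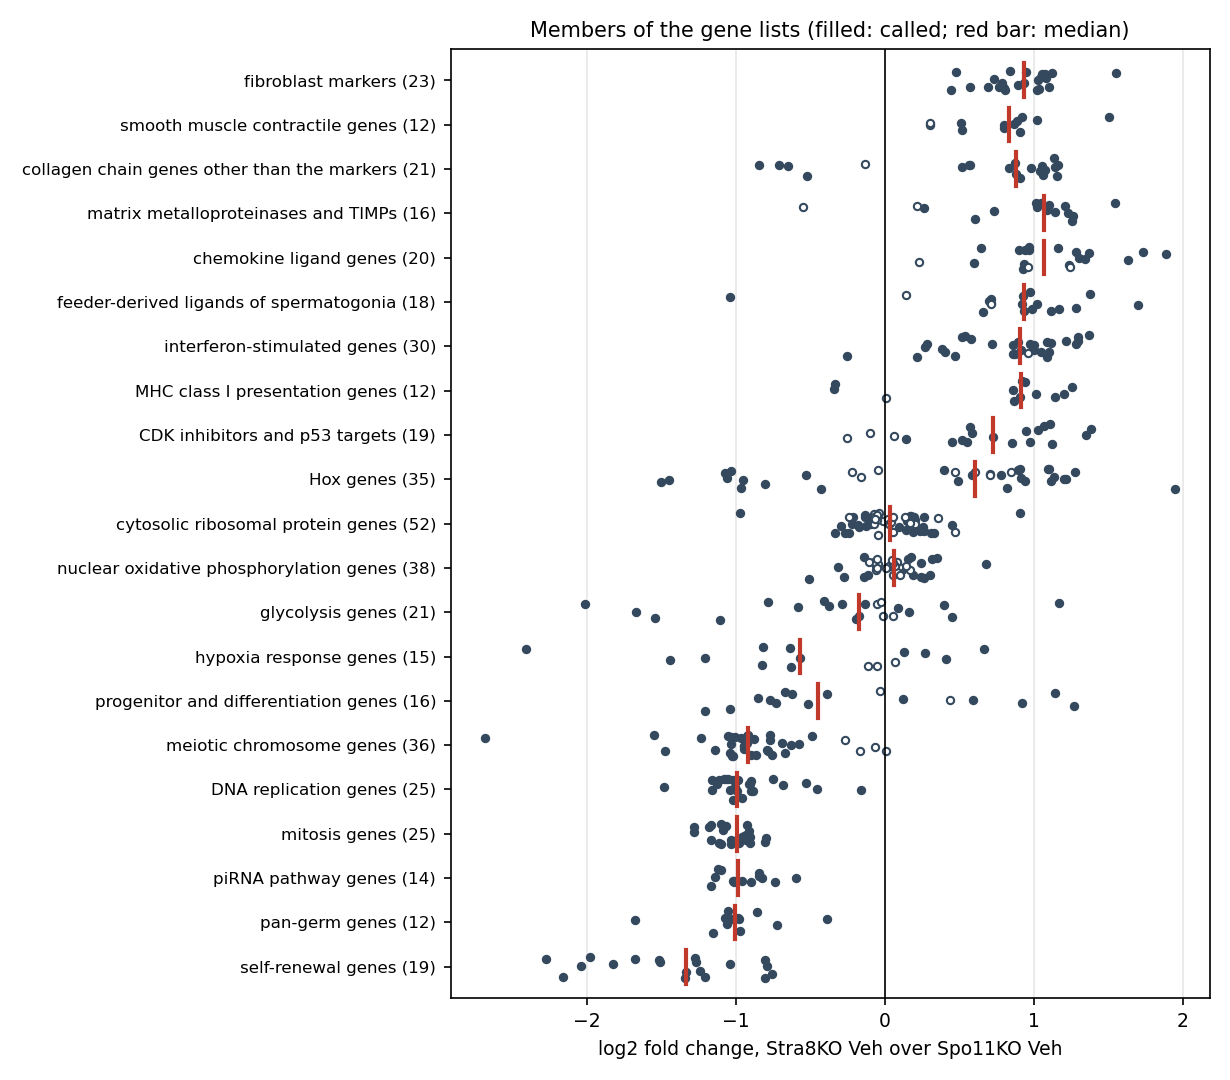
Log2 fold change of Stra8KO Veh over Spo11KO Veh (horizontal axis) for each tested member of 21 gene lists (vertical axis, number tested in parentheses), with filled points for genes called at an edgeR adjusted p under 0.05, open points for the others and a red bar at the list median. Germline, replication and mitosis lists centre near -1, fibroblast, matrix, chemokine and interferon lists near 1, and ribosomal protein and oxidative phosphorylation genes near 0.

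Promoters are shown for 5 genes of these groups, with sequence motifs marked whose shares in the lists are given below. The windows run from 250 bases before to 50 bases after the start in RefSeq (GRCm38.p6), 5′ to 3′ on the gene's strand. Capitals mark the E-box CACGTG, the E2F-type motif TTCCCGC and the interferon response motif of GAAA repeated with 2 bases between, each searched on both strands. Ddx4 (chr13:112652261-112652560, minus strand) is pan-germ, Sycp3 (chr10:88459337-88459636, plus strand) encodes a part of the meiotic chromosome axis, Mcm3 (chr1:20820263-20820562, minus strand) is a subunit of the replicative helicase, and Ifit1 (chr19:34640639-34640938, plus strand) and Isg15 (chr4:156200769-156201068, minus strand) are interferon-stimulated.
Ddx4: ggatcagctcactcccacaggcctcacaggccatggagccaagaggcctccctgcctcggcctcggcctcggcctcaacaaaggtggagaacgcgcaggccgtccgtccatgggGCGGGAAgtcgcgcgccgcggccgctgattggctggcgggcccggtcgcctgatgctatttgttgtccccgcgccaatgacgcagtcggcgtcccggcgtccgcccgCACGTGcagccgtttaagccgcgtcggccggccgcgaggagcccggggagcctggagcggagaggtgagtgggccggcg
Sycp3: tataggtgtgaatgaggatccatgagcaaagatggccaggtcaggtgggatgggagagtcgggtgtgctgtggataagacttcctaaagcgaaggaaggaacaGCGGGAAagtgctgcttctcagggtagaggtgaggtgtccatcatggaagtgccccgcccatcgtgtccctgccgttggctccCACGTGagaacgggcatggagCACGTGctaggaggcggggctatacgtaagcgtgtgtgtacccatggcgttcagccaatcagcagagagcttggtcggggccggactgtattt
Mcm3: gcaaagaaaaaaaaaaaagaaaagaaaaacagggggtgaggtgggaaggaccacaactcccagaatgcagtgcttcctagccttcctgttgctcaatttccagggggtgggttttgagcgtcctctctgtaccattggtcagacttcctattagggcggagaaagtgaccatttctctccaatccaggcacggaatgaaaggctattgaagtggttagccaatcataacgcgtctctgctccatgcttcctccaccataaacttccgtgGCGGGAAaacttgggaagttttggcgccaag
Ifit1: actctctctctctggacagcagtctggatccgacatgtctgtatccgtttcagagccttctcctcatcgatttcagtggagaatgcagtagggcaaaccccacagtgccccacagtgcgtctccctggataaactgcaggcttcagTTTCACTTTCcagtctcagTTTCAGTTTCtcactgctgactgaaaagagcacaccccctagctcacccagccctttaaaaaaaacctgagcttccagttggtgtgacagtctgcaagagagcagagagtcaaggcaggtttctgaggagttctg
Isg15: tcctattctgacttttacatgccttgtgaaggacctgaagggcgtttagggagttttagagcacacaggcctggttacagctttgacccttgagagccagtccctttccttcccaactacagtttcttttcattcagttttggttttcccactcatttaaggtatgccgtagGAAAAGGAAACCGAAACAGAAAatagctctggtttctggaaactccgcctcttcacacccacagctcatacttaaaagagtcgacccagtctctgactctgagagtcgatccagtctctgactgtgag

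A window was found for 13238 of the tested genes, of which 9.67% held CACGTG, 7.98% TTCCCGC and 2.95% the GAAA repeat. Among all 27025 windows the shares were 7.24, 4.66 and 3.49%. CACGTG was present in 4 of 9 pan-germ windows and in 7 of 30 windows of meiotic chromosome genes. TTCCCGC was present in 10 of 20 windows of replication genes and in 8 of 30 of the meiotic chromosome genes, but in none of the 20 windows of mitosis genes. Of the 9 pan-germ windows only 1, that of Ddx4, held it. The GAAA repeat was present in 15 of 21 windows of interferon-stimulated genes. Among genes called at least 2-fold lower, 10.5% held TTCCCGC against 4.52% of those called at least 2-fold higher, while the GAAA repeat was found in 2.37 and 5.05%. These shares describe letters in a window and were not tested, and by themselves they do not show binding of a factor. Of the other motifs searched, the cAMP response element TGACGTCA was in 2.03% of windows of 2-fold lower and 1.24% of 2-fold higher genes. An exact direct repeat of AGGTCA with 5 bases between, a site type of retinoic acid receptors, was in 1 window at most of either set. Among all 27025 windows it was in only 2. In the 2 sets 1 fixed spelling of the CArG box of serum response factor was likewise in 1 window at most. Other spellings or spacings of these sites were not searched, so their shares in these windows are not known.

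Genes of SSC self-renewal were lower by more than the pan-germ genes. All 19 tested genes of this list were called lower, 15 of them at least 2-fold, with a median of -1.33 (Pdx1 stayed under the filter on low counts). Gfra1 had 64.0 and 63.5 CPM in Stra8KO and 129 and 134 in Spo11KO (log2 -1.04 ± 0.0494 SE, edgeR adjusted p = 7.00e-24), and Ret had 138 and 144 against 363 and 348 (-1.33 ± 0.0436). Nanos2, an RNA-binding factor that keeps SSC undifferentiated, had 1.97 and 1.71 against 7.79 and 8.79 CPM (-2.16 ± 0.212). In all 3 genes both Stra8KO libraries lay below both Spo11KO libraries. Further members with large differences were Tspan8 (-2.28 ± 0.344), a surface tetraspanin, Pax7 (-2.04 ± 0.261), Shisa6 (-1.98 ± 0.168) and Id4 (-1.83 ± 0.0917), all of which mark the most stem-like spermatogonia, and Pou5f1 (-1.68 ± 0.0777), the pluripotency factor OCT4.

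Scaled to the pan-germ genes, 14 of the 19 self-renewal genes remained lower and 4 were higher, with a median of -0.34. On that scale Nanos2 was at -1.17 ± 0.216 (edgeR adjusted p = 2.35e-07), Id4 at -0.83 ± 0.0963 (1.53e-15), Pou5f1 at -0.68 ± 0.0803 (4.31e-15) and Ret at -0.34 ± 0.0512 (4.50e-10). Gfra1, at -0.046 ± 0.0583 (0.469), was not called. The 4 higher ones were Foxo1 (0.24), Pou3f1 (0.20), Etv5 (0.19) and Bcl6b (0.19), of which the last is a transcriptional repressor and Etv5 an ETS factor induced by GDNF. This test takes the scaling factor as known and does not carry the spread among the 12 pan-germ genes, which lie between -0.68 (Tex15) and 0.61 (Nanos3) on that scale.

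The difference in self-renewal genes depended on the medium. Under NRRA 13170 genes (64.0%) differed between the genotypes, and for 5172 genes (25.1%) the difference in Veh was itself different from that in NRRA (interaction term, edgeR adjusted p under 0.05). That term was called for 17 of the 19 self-renewal genes. Under NRRA 13 of them were higher in Stra8KO, 4 lower and 2 not called, and their median was 0.87. Gfra1 was higher by 1.61 ± 0.0521 and Nanos2 by 2.03 ± 0.342 in NRRA. Shisa6 and Foxo1 were lower in both media, with no call for the interaction. The pan-germ genes kept a like difference in NRRA (median -0.99, 11 lower and 1 higher, interaction called for 3), the exception being Nanos3, at 2.72 ± 0.149 in NRRA against -0.39 in Veh. Over all genes, 2396 of the 3336 genes at least 2-fold apart in Veh (71.8%) were called in the same direction in NRRA, 148 in the opposite direction and 792 not at all.

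**Figure D3:**
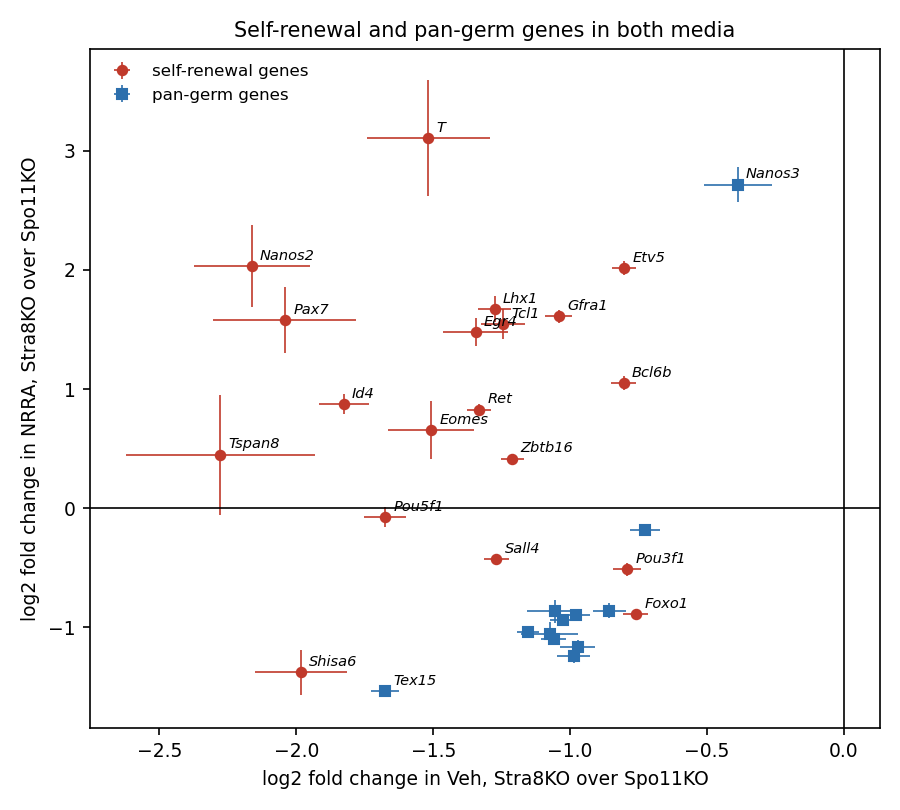
Log2 fold change of Stra8KO over Spo11KO in Veh (horizontal axis) and in NRRA (vertical axis) for the 19 tested self-renewal genes (circles) and the 12 pan-germ genes (squares), with SE as bars. All 31 points lie left of 0, and 14 self-renewal genes but only 1 pan-germ gene, Nanos3, lie above 0 in NRRA.

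A list of 18 genes of GDNF and FGF signalling held response and feedback genes and the receptors Fgfr1, Fgfr2 and Fgfr3. Of these 18, 9 were lower and 8 higher in Stra8KO Veh (median -0.13). This split holds for the scale of the bulk of genes, since 14 were higher and 2 lower on the pan-germ scale (median 0.86) and 2 higher and 13 lower on the fibroblast scale (median -1.04). Egr3, an immediate-early transcription factor, had 23.7 and 21 CPM against 59.9 and 56 (log2 -1.37 ± 0.0835 SE, edgeR adjusted p = 4.08e-19), and stood at 2.44 ± 0.17 in NRRA. Etv1 (1.17 ± 0.0804) and Spry2 (1.06 ± 0.0556), an ETS factor and a feedback inhibitor of receptor tyrosine kinases, were higher, and neither overlapped between the groups. The transcript of Gdnf itself, which the fibroblasts can make beside the added protein, was higher at 0.93 ± 0.118.

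Genes listed for progenitors and differentiating spermatogonia, with the KIT ligand Kitl among them, showed no common direction. Of 16 tested, 5 were higher and 9 lower (median -0.45). Kit, the receptor of differentiating spermatogonia, had 4.92 and 5.49 CPM in Stra8KO and 5.31 and 5.31 in Spo11KO, with overlapping groups (log2 -0.03 ± 0.124, edgeR adjusted p = 0.842). Neurog3, a factor of early progenitors, had between 4 and 9 counts in the 4 libraries and was not called. The factors Dmrt1 (-1.04 ± 0.0399) and Scml2 (-1.21 ± 0.0438) were lower. The 5 higher genes included Crabp1, a retinoic acid binding protein (1.14 ± 0.0349), Upp1, a uridine phosphorylase (1.27 ± 0.0887), and Kitl, the KIT ligand (0.92 ± 0.0659). Scaled to the pan-germ genes, 14 of the 16 were higher and 1, Scml2, lower (median 0.54). Kit stood at 0.96 ± 0.136 (edgeR adjusted p = 3.05e-11) on that scale, where the median of all genes was 0.99. Scaled to the fibroblast markers, 2 were higher and 12 lower (median -1.35). There Upp1 was at 0.36, Crabp1 at 0.23 and Kitl, which was not called, at 0.017.

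Genes of meiotic chromosomes and recombination were lower in Veh, in the absence of added retinoic acid. Of 36 tested, 32 were called lower and none higher (median -0.92). The largest difference was in Meiob, which binds single-stranded DNA in meiotic recombination, with 12 and 11 counts in Stra8KO and 75 and 90 in Spo11KO (log2 -2.69 ± 0.33, edgeR adjusted p = 9.44e-10). Rec8, the meiotic cohesin, had 5.14 and 3.37 against 13.2 and 12.0 CPM (-1.55 ± 0.131). Both genes lay apart between the groups, and both stayed lower when scaled to the pan-germ genes (Meiob -1.70 ± 0.333, adjusted p = 1.27e-06, and Rec8 -0.55 ± 0.133, 6.94e-05). On that scale 4 members were lower, 9 higher and the other 23 not called, and the median was 0.072. Stag3, a cohesin subunit, and Sycp1, of the synaptonemal complex, were at -0.67 ± 0.0425 and -0.97 ± 0.0572. Prdm9, which marks recombination hotspots, had 3.13 and 3.12 against 2.95 and 3.26 CPM and was not called (0.01 ± 0.2, adjusted p = 0.968), and neither were Mei1, Ythdc2 and Mlh3. In NRRA all 36 were lower (median -0.97).

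A longer list holds 165 genes that the study took from earlier collections of early meiosis genes and kept as differential. Of these 127 were lower and 15 higher (median -0.68), but scaled to the pan-germ genes 87 were higher and 8 lower (median 0.31). It holds Stra8 itself and shares 26 genes with the list of meiotic chromosome genes, so it is not independent of that list. Of 13 subunits of PRC1.6 and E2F repressors, which keep meiotic genes silent in mitotic germ cells, 9 were lower and none higher (median -0.47), but scaled to the pan-germ genes all 13 were higher (median 0.52).

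Retinoid genes moved in both directions, 7 of 14 higher and 3 lower (median 0.48). On the pan-germ scale 13 were higher and none lower (median 1.48), and on the fibroblast scale 1 was higher and 7 lower (median -0.42). Cyp26b1, which degrades retinoic acid, had 127 and 127 CPM against 52.2 and 59.0 (log2 1.19 ± 0.0502, edgeR adjusted p = 2.09e-25). Dhrs3, which reduces retinal, was higher at 1.07 ± 0.104. Cyp26a1, another retinoic acid hydroxylase, had 5 and 12 counts in Stra8KO and 31 and 25 in Spo11KO (-1.56 ± 0.399, adjusted p = 0.000685), and was no longer called without Stra8KO Veh replicate 1 (adjusted p = 0.0638).

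The genes with the largest differences were taken from called genes that averaged 1 or more on the log2 CPM scale over all 8 libraries and did not overlap between the Veh libraries. As this average includes NRRA, some of them had few counts in Veh. Npr3 had 16 and 16 counts in Stra8KO Veh against 4 and 6 in Spo11KO Veh, and Alox12b 7 and 5 against 38 and 41. The lowest in Stra8KO was Lhx2, a LIM-homeodomain transcription factor, with 31 and 20 counts against 536 and 419 (1.39 and 1.01 against 22.6 and 18.2 CPM). Its log2 difference was -4.07 ± 0.204 (SE, edgeR adjusted p = 1.93e-18), on the pan-germ scale -3.08 ± 0.199, and in NRRA -3.26 ± 0.275. Of the 11 tested LIM homeobox genes 4 were lower and 2 higher, with Lmx1a (-1.93 ± 0.207) next to Lhx2. Mgl2, a C-type lectin of macrophages and dendritic cells, had 1.39 and 0.906 CPM against 9.73 and 8.18 (-2.94 ± 0.208). Plvap, a protein of endothelial fenestrae, had 6.13 and 6.50 against 38.9 and 37.8 CPM (-2.60 ± 0.104), whereas in NRRA it was higher in Stra8KO by 1.64 ± 0.137.

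Other large falls were those of Fam43b (-2.65), Olfr316 (-2.56), an olfactory receptor, and Alox12b (-2.55), a lipoxygenase. They were followed by Ankrd37 (-2.41), a target of hypoxia-inducible factor, Nlrp14 (-2.38), an NLR protein of germ cells and oocytes, Dnah5 (-2.37), an axonemal dynein, Hlf (-2.36), a bZIP transcription factor, Dgki (-2.31), a diacylglycerol kinase, and Plxnc1 (-2.30), a semaphorin receptor. Dgki lies 2.14 Mb from the Stra8 gene on the same chromosome. The genes nearest to the targeted loci among those at least 2-fold apart were Cald1 (1.15 ± 0.0404), the actin-binding protein caldesmon, and Slc13a4 (-1.38 ± 0.411), a sulfate transporter, at Stra8, and Bmp7 (-1.46 ± 0.0844), a growth factor, and Ctcfl (-1.22 ± 0.144), a germline paralog of CTCF, at Spo11. Slc13a4 was not called without Stra8KO Veh replicate 1 (adjusted p = 0.107) or Spo11KO Veh replicate 2 (0.0834). Within 10 Mb of Stra8, 55.2% of 143 tested genes were called and 13.3% were at least 2-fold apart, and within 10 Mb of Spo11 60.6 and 16.6% of 241, beside 62.3 and 16.2% of all genes.

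The largest rise was that of Trim12a (chr7:104299894-104315466, minus strand, mm10), a member of the antiviral TRIM family. Its counts were 69 and 85 in Stra8KO Veh against 1 and 1 in Spo11KO, and 133 and 140 against 1 and 0 in NRRA. With the Spo11KO libraries set at 3 counts each it was at least 28.7-fold higher in Stra8KO Veh, and it was the only gene at or under 3 counts in both libraries of one genotype with at least 30 in both of the other. Its near-identical neighbour Trim12c had 50.8 and 43.8 against 53.7 and 63.0 CPM (log2 -0.30 ± 0.0823). How reads were divided between the 2 paralogs could bear on both values and was not tested. Without Stra8KO Veh replicate 2 Trim12c was no longer called (adjusted p = 0.05045). Of 11 tested Trim genes and neighbours in this region of chromosome 7, 7 were higher and 3 lower, with Trim5 at 1.54 ± 0.365 and Trim6, a regulator of interferon signalling, at -1.14 ± 0.0552.

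Among the other large rises, Flt3 and Marco, which encode a receptor of hematopoietic progenitors and a scavenger receptor of macrophages, had log2 differences of 2.76 ± 0.328 and 2.07 ± 0.346. S100a8, a myeloid calcium-binding protein, had 7.25 and 8.31 CPM against 1.98 and 1.57 (2.13 ± 0.21). Fam163a (2.79), Kng1 (1.94), a kininogen, Gvin1 (1.90), an interferon-inducible GTPase, Aspg (1.87), an asparaginase, and Pcdh10 (1.87), a protocadherin, followed. Npr3 (1.80), a natriuretic peptide receptor, Ptpn5 (1.80), a tyrosine phosphatase, Sox7 (1.79), an endodermal and endothelial transcription factor, Cd36 (1.77), a fatty acid transporter, Plau (1.77), the urokinase, and Ndst3 (1.76), a heparan sulfate enzyme, completed the 15. Plau was the most abundant of these by CPM, with 95.4 and 89.2 CPM in Stra8KO and 26.4 and 27.6 in Spo11KO. In NRRA the genotype difference was not called for S100a8, Ptpn5 and Ndst3, nor for Fam43b and Ankrd37 among the falls. The interaction was called for each of these except S100a8. The other named rises, and the other named falls except Plvap, were called in NRRA in the same direction.

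**Figure D4:**
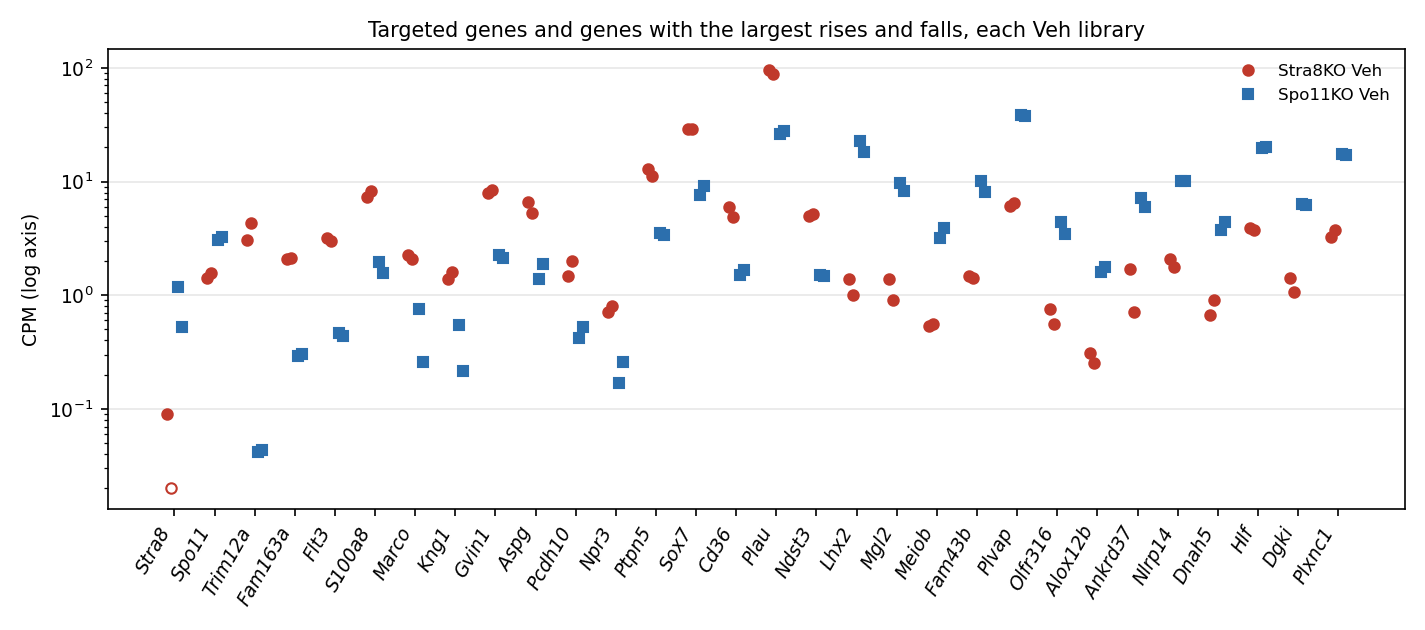
CPM (vertical axis, log scale) in each Veh library of Stra8KO (circles) and Spo11KO (squares) for the targeted genes and the genes named in the text among the largest rises and falls. The genes were chosen for groups that do not overlap, the open circle marks a library with 0 counts of Stra8 drawn at the foot of the axis, and Lhx2 and Trim12a stand furthest apart beside Stra8.

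Genes that fibroblasts secrete or express in defence were higher in Stra8KO Veh. Of 16 matrix metalloproteinases and TIMPs 14 were higher and none lower (median 1.07), of 20 chemokine ligands 17 and none (median 1.07), and of 21 further collagen chains 16 and 4 (median 0.88). Mmp10 (1.54 ± 0.0897) had the largest difference of the proteinases. Ccl2, which attracts monocytes, had 885 and 907 CPM in Stra8KO and 359 and 368 in Spo11KO (1.30 ± 0.0387, edgeR adjusted p = 1.56e-31), and the groups did not overlap. Of 18 ligands known to act on spermatogonia 15 were higher and only Igf2 lower (median 0.93), with Lif at 1.70 ± 0.0655, Nrg1 at 1.38 ± 0.0814 and Csf1 at 1.29 ± 0.0357. Scaled to the fibroblast markers, 7 of the proteinases and TIMPs were higher and 5 lower, 7 of the chemokines higher and 2 lower, 5 of the collagen chains higher and 8 lower and 6 of the ligands higher and 2 lower. On that scale Lif (0.80), Nrg1 (0.47) and Csf1 (0.38) were still called higher, whereas Gdnf (0.029 ± 0.125, adjusted p = 0.844) and Kitl (0.017) were not.

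Of 30 interferon-stimulated genes 28 were higher and 1 lower (median 0.91). Oas2, which senses double-stranded RNA, had 39.4 and 43.3 CPM against 15.6 and 16.3 (log2 1.37 ± 0.0753, edgeR adjusted p = 1.80e-21). Ifit1 and Isg15, whose promoters are printed above, were higher by 1.09 ± 0.0962 and 1.00 ± 0.0656. Gbp2 was the lower one, at -0.26 ± 0.0907 (adjusted p = 0.0221), but without Stra8KO Veh replicate 1, Spo11KO Veh replicate 1 or Spo11KO Veh replicate 2 it was not called (adjusted p between 0.0575 and 0.264), nor was it by DESeq2 (0.119). Of 12 genes of MHC class I presentation 9 were higher and 2 lower (median 0.91). B2m, the class I light chain, was higher by 1.26 ± 0.0404, while the immunoproteasome subunits Psmb9 (-0.33 ± 0.101) and Psmb10 (-0.34 ± 0.0631) were lower in Veh and higher in NRRA (0.95 ± 0.0873 and 0.94 ± 0.059, interaction called for both). Scaled to the fibroblast markers the interferon list had 7 members higher and 10 lower and a median of -2.16e-05.

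Hox genes divided by cluster, a grouping made after their values were seen. The genes of the 4 Hox clusters set position along the body axis. All 10 tested Hoxb genes were lower (median -1.001, range -1.51 to -0.43), whereas 8 of 10 Hoxa (median 0.90), 6 of 9 Hoxc (median 0.49) and 4 of 6 Hoxd genes (median 1.06) were higher and none lower. Hoxb8 had 40.3 and 37.7 CPM in Stra8KO and 113.8 and 107.6 in Spo11KO (log2 -1.51 ± 0.0623 SE, edgeR adjusted p = 4.56e-25), and Hoxc6 had 75.3 and 75.4 against 32.3 and 36.2 (1.14 ± 0.0612). In neither did the groups overlap. On the pan-germ scale Hoxb1 (-0.46) and Hoxb8 (-0.51) were still called lower, Hoxb3 (0.47), Hoxb4 (0.19) and Hoxb9 (0.56) were higher and the other Hoxb genes were not called, and on the fibroblast scale 1 of all 35 Hox genes was higher and 16 lower (median -0.29). In NRRA the Hoxb genes had a median of 0.21, with 5 higher and 2 lower, and the interaction was called for all 10, beside 1 of the Hoxa, 5 of the Hoxc and none of the Hoxd genes.

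**Figure D5:**
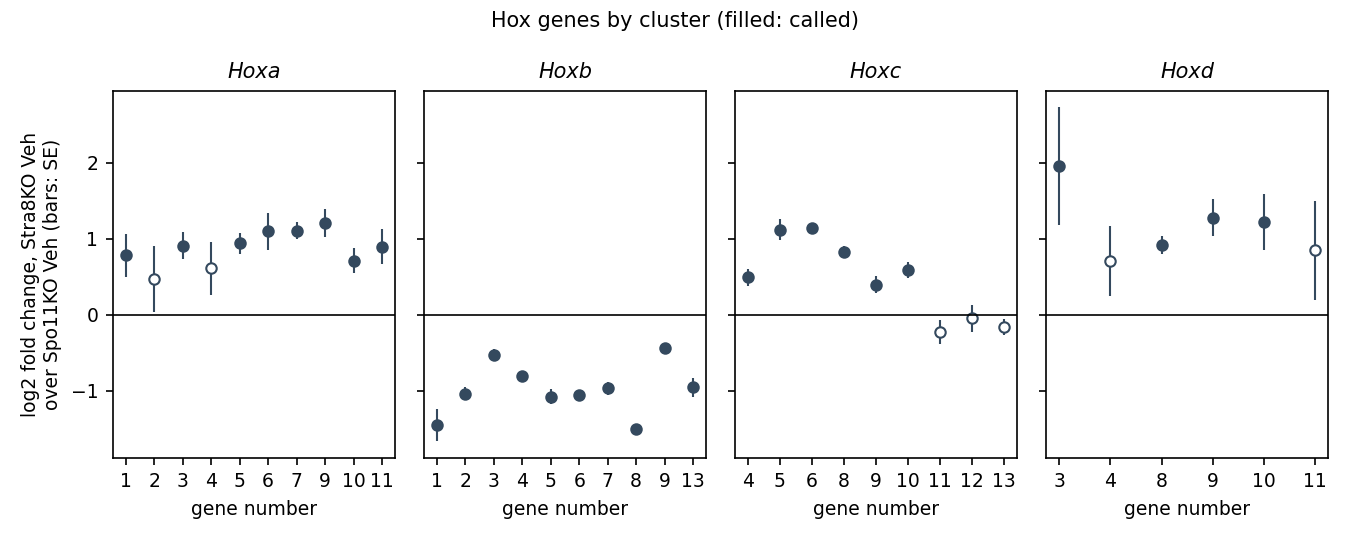
Log2 fold change of Stra8KO Veh over Spo11KO Veh (vertical axis, bars are SE) for each tested Hox gene by its number within the 4 clusters (horizontal axis), with filled points for called genes. The 10 Hoxb genes lie below 0, and the called genes of the other 3 clusters lie above it.

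Genes of protein synthesis and respiration lay close to the median gene. The 52 cytosolic ribosomal protein genes had a median of 0.033 (18 higher, 14 lower) and the 38 nuclear oxidative phosphorylation genes one of 0.063 (11 higher, 6 lower), and none of them was at least 2-fold apart. On the fibroblast scale 49 and 38 of them were lower, and on the pan-germ scale 51 and 38 were higher. Glycolysis genes had a median of -0.17 with 12 of 21 lower and 5 higher, but on the pan-germ scale 17 were higher and 3 lower (median 0.82). Slc2a3, a glucose transporter, had 14.2 and 13.4 CPM against 57 and 55 (log2 -2.01 ± 0.0793, edgeR adjusted p = 4.92e-27). Aldoc, an aldolase (-1.67 ± 0.1), and Slc16a3, a lactate exporter (-1.55 ± 0.075), were lower as well, and all 3 remained lower when scaled to the pan-germ genes (-1.02, -0.67 and -0.55). Ldhb was higher, at 1.17 ± 0.0671. Of 15 genes that respond to hypoxia 8 were lower and 4 higher (median -0.57), Ankrd37 and Ndrg1 (-1.45 ± 0.0638) being lowest and Vegfa (0.67 ± 0.047) highest. Ankrd37 (-1.42), Ndrg1 (-0.45) and Bnip3 (-0.21) were still called lower on the pan-germ scale, and the other 12 were higher.

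Of 26 genes driven by the stress factor ATF4 13 were higher and 10 lower (median 0.14), with the cystine transporter Slc7a11 at 1.62 ± 0.0774, and of 24 cholesterol synthesis genes 10 were higher and 11 lower (median -0.016). On the pan-germ scale all 26 and 23 of the 24 were higher, and on the fibroblast scale 20 and 22 were lower. Among 28 imprinted genes 15 were higher and 8 lower (median 0.42), against 1 higher and 19 lower on the fibroblast scale. Plagl1 (-1.60 ± 0.0712), a zinc finger factor, H19 (-1.17 ± 0.0438) and Igf2 (-1.04 ± 0.103) were lower, while Meg3, another imprinted long RNA, was higher at 0.95 ± 0.039. Plagl1 had 20.7 and 25.1 CPM in Stra8KO and 66.5 and 71.4 in Spo11KO, with no overlap. In NRRA these differences were not the same, Plagl1 standing at -0.03 ± 0.0674 and H19 at 0.19 ± 0.0383, and the interaction was called for both. The 9 enzymes of DNA methylation and demethylation had 5 lower and 3 higher (median -0.64), and on the pan-germ scale 1 lower and 6 higher. Of 8 tested Y-linked genes 7 were lower and 1, Ddx3y (0.30 ± 0.0743), higher (median -0.63, Usp9y -1.16 ± 0.0906), and on the pan-germ scale 4 were higher and none lower.

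Markers of other cells were low and mixed. Of the macrophage markers Cx3cr1, C1qb, C1qc and Cd163, and of the Sertoli cell markers the defining genes Amh, Rhox5, Fshr and Cldn11 stayed under the filter on low counts, and the 8 tested Sertoli markers, which are not all restricted to that cell, had 5 higher and none lower (median 0.48). Of 16 macrophage markers 12 were tested, with 3 higher, 2 lower and a summed level of 60.6 and 56.8 CPM in Stra8KO and 51.3 and 47.4 in Spo11KO. Lyz2 (1.28 ± 0.0968), a lysozyme, and Adgre1 (1.29 ± 0.201), the F4/80 antigen, were higher, whereas Mgl2 and Mrc1, the mannose receptor, were lower. Mrc1 rested on 16 to 51 counts (-1.20 ± 0.37), and without Spo11KO Veh replicate 2 it was not called (adjusted p = 0.141). Of the Leydig markers 1 of 3 tested was higher, of the endothelial markers 2 of 7 higher and 3 lower, of the keratinocyte markers 2 of 5 higher and of the neuron-type genes 3 of 11 higher and 1 lower. On the fibroblast scale 1 macrophage marker was higher and 5 were lower, and 5 Sertoli markers were lower. Their part in the differences above was not tested.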

How the data were processed

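RNA-seq was made from 8 SSC cultures with feeders, of which the 4 in Veh are compared here. The authors deposited 1 table of raw read counts per gene, made per the submitters' processing notes with bcl2fastq, STAR 2.6.1c and featureCounts 1.6.4 on mm10. The strand setting is not given in the sources used here, so overlapping antisense genes cannot be told apart. The table holds 55421 genes in GENCODE M21 style, and 20588 passed edgeR's filter on low counts, with 99.9% of all counts. Counts were scaled by TMM and all 8 libraries were fitted together with edgeR 4.0.16 (R 4.3.3, quasi-likelihood test, robust), with a contrast of the genotypes in Veh, in NRRA and their difference. A gene was called at a Benjamini-Hochberg adjusted p under 0.05 over all tested genes. DESeq2 1.42.0 served as an alternative. Both were checked on simulated counts in which few genes changed, as many up as down. That check does not bear on the choice of scale.

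Gene lists are described by counts and medians, with no set test. The comparison and the lists were chosen with earlier results of these data known. Named genes are Stra8, Spo11, the 15 largest rises and falls described in the text, and from each list the largest rise and fall, the most abundant member, members called against the majority the members of short lists, and the 2-fold genes nearest the targeted loci, of which the text gives a selection. 1 gene that the rule takes is not reported here. Other named members were chosen after their values were seen. A further part of that rule, genes at the floor with at least 100 counts in both libraries of the other genotype, took no gene, and the limit of 30 counts in the text was set later. Coordinates are from GENCODE M21 and promoters from RefSeq GRCm38.p6, 1 window per gene. Differences of log2 values carry a standard error from the model. The alternatives were other scalings, filters, DESeq2, a fit of 4 libraries, a replicate block, a stricter threshold and leaving out each library. Precision covers counting error and the spread between 2 libraries only. Pairs of replicate libraries differed by more than counting error (mean chi-square per gene 1.86 in Stra8KO Veh and 4.12 in Spo11KO Veh).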

Additional observations from a re-analysis of the deposited data

Results flagged for a closer look

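For 11 genes the genotype difference was at least 2-fold in Veh and at least 2-fold the other way in NRRA, and the difference between the media was itself called by the interaction term of edgeR over all tested genes. All 11 were lower in Stra8KO in Veh and higher in NRRA. The difference in Veh minus that in NRRA, on the log2 scale, was -2.65 for Gfra1 (adjusted p = 9.68e-33), -4.19 for Nanos2 (4.68e-12), -3.62 for Pax7 (8.56e-11), -2.95 for Lhx1 (6.57e-25), -4.62 for T (7.95e-10), -2.79 for Tcl1 (6.52e-21) and -2.82 for Egr4 (9.36e-05), all of the self-renewal list. It was -3.81 for Egr3 (2.18e-21), of the GDNF and FGF feedback list, -4.24 for Plvap (2.15e-25), -2.49 for Hoxb1 (2.27e-09), and -2.65 for Mrc1 (0.001001), which rests on few counts. Only genes named in the text were examined in this way, and over all tested genes 80 met the same conditions, 66 of them lower in Veh. With 2 libraries a group, no library could be examined for standing apart from its group.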

How the results depend on the processing

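The count of genes called in Veh, 12826, stayed between 10960 and 16407 over all alternatives, and that in NRRA, 13170, between 11286 and 15757. Called genes at least 2-fold apart, 3336 in the text, became 10081 when scaled to the pan-germ genes and 8935 when scaled to the fibroblast markers. Leaving out 1 library gave 11317 to 11715 called genes in Veh, 3126 to 3276 of them at least 2-fold, and 11723 to 12310 in NRRA. DESeq2 called 11004 genes in Veh.

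With library totals, the pan-germ scale and the fibroblast scale in turn, the medians were -1.12, -0.013 and -1.91 for the pan-germ genes, -1.45, -0.34 and -2.24 for the self-renewal genes, -1.04, 0.072 and -1.83 for the meiotic chromosome genes and 0.82, 1.93 and 0.029 for the fibroblast markers. These follow from the scale, which is set by the first and the last list. Leaving out 1 library moved the pan-germ median between -1.03 and -0.99, the self-renewal median between -1.36 and -1.23 and the fibroblast median between 0.90 and 0.96.

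Other list medians that changed sign were, on the pan-germ scale, those of the piRNA (0.010), progenitor (0.54), Y-linked (0.36), DNA replication (0.0041), GDNF and FGF feedback (0.86), endothelial (0.71), mitochondrially encoded (0.75), cholesterol synthesis (0.98), glycolysis (0.82), hypoxia (0.42), DNA methylation (0.35), PRC1.6 (0.52) and early meiosis lists (0.31), and on the fibroblast scale the retinoid (-0.42), macrophage (-0.44), Leydig (-0.82), keratinocyte (-0.50), neuron-type (-0.83), ribosomal protein (-0.87), nuclear oxidative phosphorylation (-0.84), ATF4 (-0.76), LIM homeobox (-0.88), smooth muscle (-0.069), Sertoli (-0.42), collagen (-0.028), interferon (-2.16e-05), chromosome 7 Trim (-0.49), imprinted (-0.48), CDK inhibitor and p53 (-0.18) and Hox lists (-0.29). With library totals the Leydig (-0.033), neuron-type (-0.039), ribosomal protein (-0.080), nuclear oxidative phosphorylation (-0.051) and LIM homeobox (-0.098) medians fell below 0.

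Single genes that changed sign on the pan-germ scale were Mael (0.016), Nanos3 (0.61), Piwil2 (0.037), Tdrd5 (0.40), Etv5 (0.19), Bcl6b (0.19), Foxo1 (0.24), Pou3f1 (0.20), Kit (0.96), Sox3 (0.37), Mei1 (0.73), Ythdc2 (0.83), Mlh3 (0.93), Stag3 (0.32), Sycp1 (0.029), Sycp3 (0.21), Gbp2 (0.74), Psmb9 (0.66), Psmb10 (0.65), Hoxb3 (0.47), Hoxb4 (0.19), Hoxb9 (0.56), Gapdh (0.59), Trim12c (0.69) and Rpl29 (0.023). On the fibroblast scale they were Neurog3 (-0.45), Rarg (-0.31), Prdm9 (-0.89), Col1a1 (-0.065), Twist1 (-0.46), Acta2 (-0.036), Vegfa (-0.24) and Ddx3y (-0.60). Prdm9 was at -0.10 with library totals. Leaving out 1 library put Prdm9 between -0.063 and 0.086, Neurog3 between -0.047 and 1.15 and Kit between -0.11 and 0.049, none of them called.

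With the replicate number as a block 12765 genes were called in Veh, 3326 of them at least 2-fold, and 13109 in NRRA, and no call of a named gene changed. The numbers were not taken to pair the libraries. The correlations of same-numbered deviations ran from -0.128 to 0.210 between the groups, highest between Spo11KO Veh and Spo11KO NRRA. Counting error lowers such correlations, so they cannot show whether libraries were paired. With 2 libraries a group, low genes such as Cyp26a1, Mrc1 and Slc13a4 rest on few counts.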
